A study of Rattus norvegicus with 8 samples.

Results

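Glomeruli of Dahl rats were compared between 4 and 6 weeks of age, using 4 of the 8 arrays of the study (2 Dahl rats of 4 weeks and 2 of 6 weeks). They were chosen by strain and age alone, from the labels. The rats were male Dahl salt-sensitive (Dahl SS) rats, a strain in which proteinuria develops spontaneously. The other 4 arrays hold glomeruli of male spontaneously hypertensive rats (SHR) without proteinuria, 2 of 4 weeks and 2 of 6 weeks. They serve below to compare the change with age and the levels with those in SHR. They also enter the estimate of spread behind every limma p value. All rats were kept on a low-salt diet, and none received another treatment according to the sources used here. The glomeruli were taken from the left kidney by magnetic retraction, and each array holds total RNA of 1 rat, numbered here as the labels number the biological replicates (rat 1 and rat 2). Values are log2 intensities as deposited, so that a difference of 1 is a 2-fold difference.

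The glomerulus is the filter of the kidney. Its capillaries are lined by fenestrated endothelium and covered by podocytes, held together by mesangial cells, and surrounded by the parietal cells of Bowman's capsule. Kidneys of young rats are still growing at these ages, and dividing cells carry mRNAs of cyclins, spindle proteins and replication factors that resting cells lack. Interferons induce another large group of genes through the response elements in their promoters, and immediate early genes such as Fos respond within minutes to stimulation of a cell, the handling of tissue included.

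Markers of the glomerulus were present on every Dahl array. Of 20 podocyte markers measured, 17 exceeded 5 on at least 1 Dahl array, and the median level of the list was 10.71, 10.94, 10.83 and 11.13 in the 4 weeks rat 1, 4 weeks rat 2, 6 weeks rat 1 and 6 weeks rat 2. The slit diaphragm gene Nphs1 lay at 12.10 and 12.23 at 4 weeks and at 12.28 and 12.65 at 6 weeks. The isolates also held tubular RNA, since the median of 26 proximal tubule markers was 10.56, 10.53, 10.17 and 8.58 in the same order. Rat 2 of 6 weeks therefore stood apart in its tubular markers. It stood apart across all probe sets as well: 1029 probe sets differed 2-fold between both 6 weeks rats, against 272 between both 4 weeks rats. Rat 1 of 6 weeks correlated with the 4 weeks rats at 0.9939 and 0.9942 across probe sets, and rat 2 at 0.9824 and 0.9864. For this reason differences that both 6 weeks rats showed are given apart from those of rat 2 alone. Array medians of the Dahl rats lay between 4.142 and 4.165. The 3′ minus 5′ difference of the Actb probe sets, a sign of RNA integrity, was 2.65 to 2.82 in Dahl rats and 3.29 to 3.66 in SHR, and its part in the differences between strains was not tested.

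A probe set (the group of oligonucleotides that measures 1 transcript) was counted as shared when each 6 weeks rat lay at least 1 above, or at least 1 below, the mean of the 4 weeks rats and outside both of them. By this rule 124 of 31042 probe sets (0.399%) were higher and 69 (0.222%) lower in both 6 weeks rats. With 1 probe set per gene, these were 82 of 14217 genes (0.577%) higher and 53 (0.373%) lower. Rat 2 alone deviated by this much, with rat 1 within 0.5 of the 4 weeks mean, for 211 probe sets upward (0.68%) and 717 downward (2.31%). These correspond to 104 genes (0.732%) and 512 genes (3.6%). Rat 1 alone gave only 25 probe sets upward (0.0805%) and 8 downward (0.0258%). The same rule in SHR gave 526 shared probe sets higher, 370 lower, and for the second SHR rat alone 23 and 43. Counted for each rat by itself, 107 genes were at least 2-fold higher and 71 lower in rat 1, and 298 higher and 665 lower in rat 2.

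**Figure D1:**
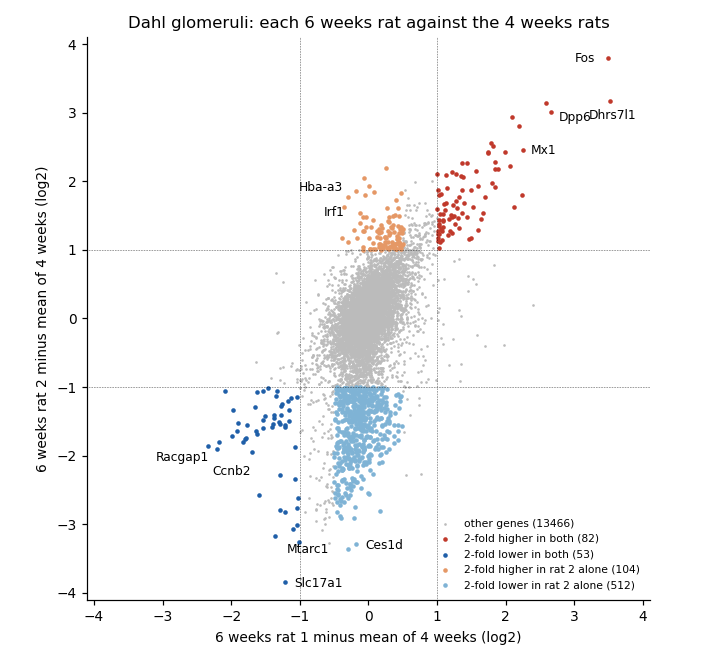
Difference of each Dahl 6 weeks rat from the mean of both 4 weeks rats, across 14217 genes (log2; rat 1 on the horizontal axis, rat 2 on the vertical axis, dotted lines at a 2-fold difference). The 82 and 53 shared genes lie in the upper right and lower left corners, while the 512 genes lower in rat 2 alone form a column below the centre.

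The test for a change from 4 to 6 weeks was limma over all 8 arrays, with p values adjusted by Benjamini and Hochberg. Of 31042 probe sets, 16 rose (0.0515%) and 9 fell (0.029%) at an adjusted p under 0.05, and 2718 had an unadjusted p under 0.05. In SHR 467 rose (1.5%) and 284 fell (0.915%). The change with age differed between the strains (the interaction in limma) for 161 probe sets, with 73 (0.235%) more positive in Dahl rats and 88 (0.283%) more negative. An exact permutation of 2 against 2 rats cannot reach a p below 0.333, and none is given. The limma calls rest on the spread that all groups share: no probe set passed when any 1 of the SHR arrays was left out, or with the Dahl arrays alone. Without rat 1 of 6 weeks, 540 rose and 503 fell. Without rat 2 they were 32 and 7, without rat 1 of 4 weeks 11 and 26, and without rat 2 of 4 weeks 19 and 22.

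Of the 25 probe sets that passed, 18 were annotated to 1 gene. Of the 8 genes that fell, 6 encode proteins of dividing cells: Ube2c, Ccna2, Mki67, Racgap1, Pttg1 (securin, which holds sister chromatids together until anaphase) and Esco2 (an acetyltransferase of cohesin). The other two were Ppfibp2 (fell by 0.47) and Fastkd5 (fell by 0.37), a factor of mitochondrial RNA processing. The 10 genes that rose included the transcription factor gene Jun, the interferon-induced GTPase gene Mx1, the quinone reductase gene Nqo1 and the cAMP-responsive transcription factor gene Crem. The probe sets of Cacna2d1, Crem, Vcan and Dpp6 among these did not exceed 5 on any array, nor did that of Esco2. None of the probe sets in which rat 2 deviated alone passed this test. Of the 124 shared probe sets higher, 8 passed, and of the 69 lower, 6 passed. The rules bear on these counts, since rat 2 alone requires that the 6 weeks rats disagree, and the shared rule that both deviate. The counts therefore do not support the sorting.

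**Figure D2:**
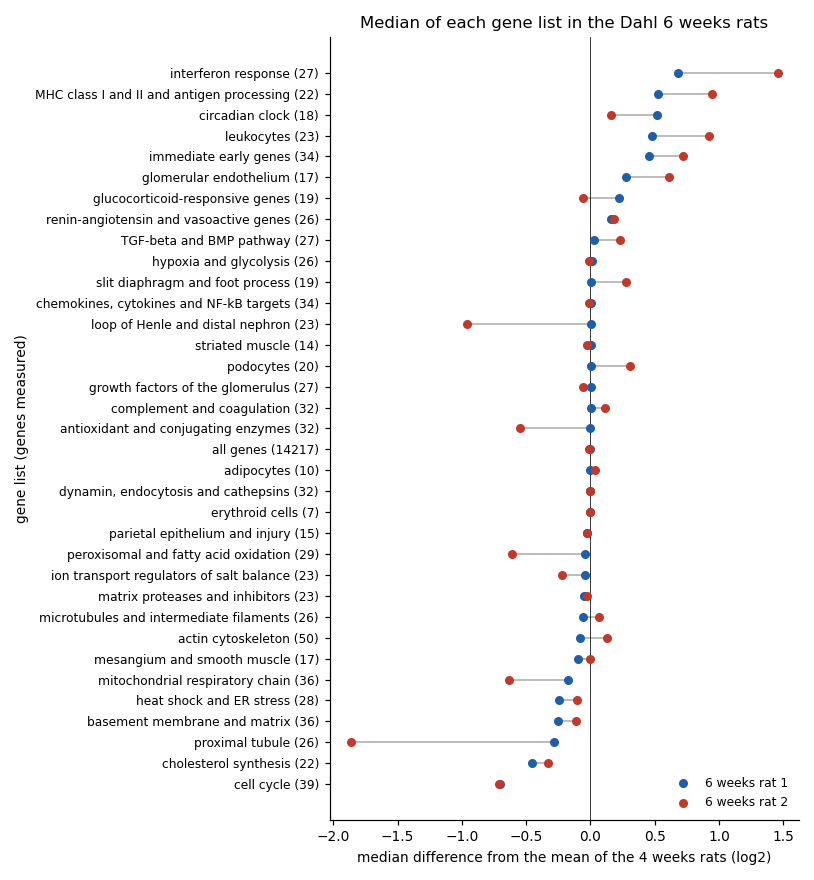
Median difference from the mean of the Dahl 4 weeks rats for 34 gene lists and for all genes, in each 6 weeks rat (log2; number of genes measured in brackets). Cell cycle genes lay at -0.71 in both rats, interferon response genes at 0.68 and 1.46, and proximal tubule markers at -0.28 in rat 1 and -1.86 in rat 2.

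Cell cycle genes formed the largest listed group among the shared differences downward. Of 39 cell cycle genes measured, 35 were below both 4 weeks rats in both 6 weeks rats, against 20.7% of all genes, and 13 of the 53 genes lower 2-fold in both rats were of this list. The level of 17 members did not exceed 5 on any Dahl array. Limma called 3 of the 39 lower at 6 weeks, Ube2c, Ccna2 and Mki67, and none higher. The median of the list was -0.71 in rat 1 and -0.71 in rat 2, and across all genes it was -0.00 and -0.01. In whole glomeruli, fewer dividing cells and less of these mRNAs per cell cannot be told apart.

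Ube2c, the ubiquitin-conjugating enzyme that works with the anaphase-promoting complex, lay at 6.53 and 6.68 at 4 weeks and at 4.83 and 4.86 at 6 weeks. Ccna2 (cyclin A2) measured 6.92 and 7.02 at 4 weeks against 5.33 and 5.33 at 6 weeks. Mki67, whose protein coats the chromosomes of dividing cells, was at 7.96 and 7.85 and then at 6.50 and 6.33. All 3 were shared genes, for which the rule itself requires that the groups do not overlap. Ube2c fell by 1.76 (SE 0.10, limma adjusted p = 0.0396), which is 3.39-fold, Ccna2 fell by 1.64 (SE 0.10, adjusted p = 0.0396) and Mki67 fell by 1.49 (SE 0.09, adjusted p = 0.0396).

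Racgap1, needed for cytokinesis, was not on the list and had the largest shared difference downward by the smaller of both deviations: 6.03 and 6.25 at 4 weeks, 3.94 and 4.24 at 6 weeks. It fell by 2.05 (SE 0.13, limma adjusted p = 0.0396). Values of Ccnb2 (cyclin B2) were 7.56 and 7.88 at 4 weeks and 5.90 and 5.92 at 6 weeks, those of Cdk1, the kinase that cyclin B activates, 6.88 and 6.91 and then 4.97 and 5.25. Bub1, a kinase of the spindle checkpoint, lay at 5.49 and 5.84 and then at 3.87 and 3.92. The adjusted p values of these, 0.0733 for Ccnb2, 0.10 for Cdk1 and 0.124 for Bub1, did not pass. The 2 genes of the list with a difference above 0 were Ccnd1 (0.03) and Mcm7 (0.07). Genes that license replication lay only slightly lower, such as Mcm2 (7.24 and 7.24, then 6.87 and 6.95). In 12 of the 13 shared members both 6 weeks rats lay within 0.5 of each other, as in 37 of all 53 shared lower genes.

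The promoters of Ccnb2 and Cdk1 are shown because their cell cycle elements are shared with many of the list. Lower case gives the 150 bases before the start of transcription (RefSeq, GRCr8), and capitals mark the cell cycle homology region TTTGAA and the CCAAT box, which reads ATTGG on the other strand. Ccnb2 lies on the minus strand at chr8:79981659-79981808 and Cdk1 on the plus strand at chr20:19265143-19265292.
Ccnb2: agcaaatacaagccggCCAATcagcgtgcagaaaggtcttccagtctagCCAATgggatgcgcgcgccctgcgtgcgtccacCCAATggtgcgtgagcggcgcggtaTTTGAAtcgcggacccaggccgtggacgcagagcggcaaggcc
Cdk1: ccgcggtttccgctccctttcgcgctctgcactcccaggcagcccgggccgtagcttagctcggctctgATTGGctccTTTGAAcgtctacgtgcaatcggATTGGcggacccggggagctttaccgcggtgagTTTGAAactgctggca
Both strands were searched in 300 bases, from 250 before the start to 50 after it. TTTGAA was present in 18.1% of all 27457 promoters, in 16 of the 32 cell cycle genes with a promoter in the table (50%) and in 8 of the 11 shared ones (72.7%). CCAAT was present in 37.7% of all, in 23 of the 32 (71.9%) and in 9 of the 11 (81.8%). These are matches of letters and not measured sites.

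In SHR the direction over the same 2 weeks was the opposite. There 18 of the 39 rose by limma, against 2.35% of all genes, and none fell. Both 6 weeks SHR lay above both 4 weeks SHR for 36 of the 39, against 28.4% of all genes, and the median of the list was 0.93 above its 4 weeks level. Ube2c rose from 4.23 and 3.98 to 6.24 and 6.27 in SHR (change 2.15, adjusted p = 0.00526), and Mki67 from 5.51 and 5.39 to 7.62 and 7.46. The median level of the list was 5.48 and 5.62 in the Dahl rats of 4 weeks, 4.80 and 4.51 in those of 6 weeks, 4.01 and 3.98 in the SHR of 4 weeks and 5.27 and 5.42 in those of 6 weeks. Thus at 4 weeks the list was higher in Dahl rats, and at 6 weeks it was higher in SHR.

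The interaction of strain and age passed for 16 of the 39 genes, and all 16 were more negative in Dahl rats. Of all 14217 genes 64 passed as more negative in Dahl rats. It was -3.91 for Ube2c (SE 0.13, limma adjusted p = 0.00615), -3.58 for Mki67 (adjusted p = 0.00615) and -2.56 for Mcm2 (adjusted p = 0.00615). The median interaction over the list was -1.90, and it ran from -2.17 to -1.63 when any 1 array was left out. With 1 array left out, the count was 15 and 11 without rat 1 or rat 2 of Dahl 6 weeks. It was 6 and 5 without rat 1 or rat 2 of Dahl 4 weeks, 10 and 9 without rat 1 or rat 2 of SHR 4 weeks, and 1 and 6 without rat 1 or rat 2 of SHR 6 weeks. The 3 calls within Dahl rats were lost without either 4 weeks rat and without any SHR array, were 9 without rat 1 of 6 weeks, and 1 without rat 2.

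**Figure D3:**
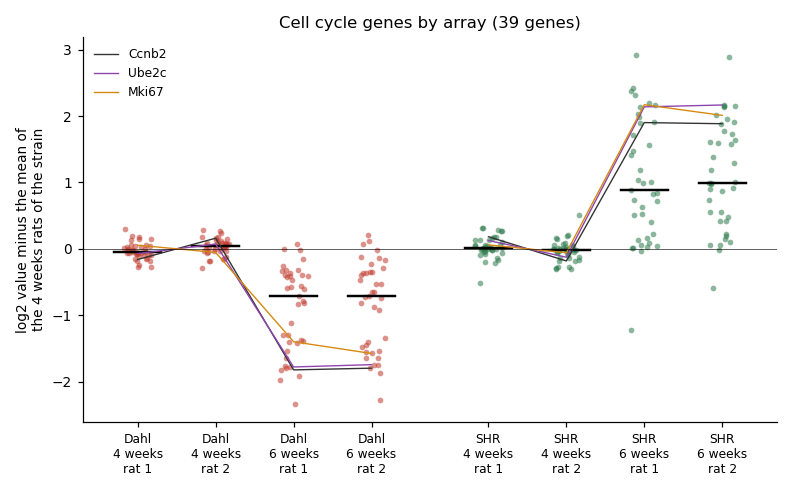
Cell cycle genes (39) in all 8 arrays, each as its log2 value minus the mean of the 4 weeks rats of its strain. Points are genes, black bars are medians and lines follow Ccnb2, Ube2c and Mki67; the medians of both Dahl 6 weeks rats lie at -0.71, and those of the SHR 6 weeks rats at 0.89 and 0.99.

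The 53 shared lower genes also held genes of cell division that were on no list, chosen here after their values were seen. Knstrn, a spindle protein, lay at 5.47 and 5.31 at 4 weeks and at 3.40 and 3.68 at 6 weeks. Cdkn3, a phosphatase of cyclin-dependent kinases, was at 6.99 and 7.24 and then at 5.42 and 5.18. Pttg1 lay at 6.43 and 6.32 at 4 weeks and at 5.09 and 5.09 at 6 weeks, and it fell by 1.28 (SE 0.05, limma adjusted p = 0.0165). Among all 53, 22 had an interaction that passed, each more negative in Dahl rats, against 64 of all 14217 genes. The 53 were chosen by their lower level in Dahl rats, which enters the interaction, so its sign was largely set by that choice. By limma 20 of the 53 rose in SHR, against 2.35% of all genes. The 53 genes were 0.86 higher at 6 weeks in SHR at their median, with 33 of 53 above 0.

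The chemokine gene Cxcl13, which attracts B cells, was also lower in both rats, at 8.14 and 8.89 at 4 weeks and at 6.34 and 6.72 at 6 weeks (adjusted p = 0.150). Mrln (5.43 and 5.33, then 3.76 and 3.70) and Lgals2 (5.35 and 5.77, then 3.96 and 2.99) were lower in both rats too. Neither passed limma (adjusted p = 0.211 for Mrln and 0.307 for Lgals2). Genes of cholesterol synthesis stood below both 4 weeks rats in 14 of 22 cases, again against 20.7% of all genes, with medians of -0.45 in rat 1 and -0.33 in rat 2. Idi1, an isomerase of the isoprenoid pathway, was at 8.44 and 8.33 and then at 7.04 and 7.26, and Sqle (squalene epoxidase) at 6.33 and 6.86 and then at 4.98 and 5.52. No gene of this list passed within Dahl rats by limma. An unadjusted p under 0.05 with a lower level at 6 weeks was found for 10 of the 22, against 669 of all 14217 genes. The interaction passed for Idi1 (-2.17, adjusted p = 0.0450) and Cyp51 (-1.87, adjusted p = 0.0451), both of which lay higher at 6 weeks in SHR, by 0.94 and 0.78, without passing there. Dhcr7, the last enzyme of the pathway, was instead lower at 6 weeks in both strains, at 7.73 and 7.19 and then 6.24 and 5.87 in Dahl rats, and it fell by 2.50 in SHR (adjusted p = 0.0221).

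Interferon response genes formed the largest group among the shared differences upward. Of 27 measured, 24 lay above both 4 weeks rats in both 6 weeks rats, against 16.2% of all genes. Of the 82 genes 2-fold higher in both rats 11 were of this list. In rat 2 alone 5 members (Irf1, Igtp, Gbp4, Ifih1 and Stat2) were 2-fold higher, against 0.732% of all genes. The list's median was 0.68 in rat 1 and 1.46 in rat 2. In 25 of the 27 rat 2 lay farther from the 4 weeks mean, against 9858 of all 14217 genes. By limma 1 member rose, Mx1. An unadjusted p under 0.05 with a higher level at 6 weeks was found for 20 of the 27, against 886 of all 14217 genes.

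Mx1, an antiviral GTPase, lay at 3.94 and 3.90 at 4 weeks and at 6.18 and 6.38 at 6 weeks, and it rose by 2.36 (SE 0.16, limma adjusted p = 0.0471), which is 5.13-fold. Irf7, the transcription factor that amplifies type I interferon, was at 6.11 and 6.40 and then at 8.25 and 8.69. Ifit3, whose protein binds viral RNA with its partners, measured 4.25 and 4.42 against 6.42 and 7.27. All 3 were shared genes by the rule above. Usp18, which removes the ubiquitin-like Isg15 from proteins, lay at 5.50 and 5.63 at 4 weeks and at 7.42 and 7.85 at 6 weeks, and Isg15 itself at 6.29 and 6.43 and then at 7.64 and 8.47. Their adjusted p values were 0.227 for Irf7, 0.169 for Ifit3, 0.119 for Usp18 and 0.343 for Isg15. Among interferon-inducible genes outside the list, Ifi27l2b was at 5.07 and 5.52 and then at 7.88 and 8.43, and the helicase gene Ddx60 at 5.74 and 5.50 and then at 7.50 and 7.80.

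In the promoters of Ifit3 and Irf7 the core of the interferon-stimulated response element, GAAANNGAAA, was found on the minus strand of the gene, so that it reads as its reverse complement. Both are shown as an example of the element that most of the list carries. Capitals mark it in the 150 bases before the start (RefSeq, GRCr8), for Ifit3 on the plus strand at chr1:241527176-241527325 and for Irf7 on the minus strand at chr1:205800024-205800173.
Ifit3: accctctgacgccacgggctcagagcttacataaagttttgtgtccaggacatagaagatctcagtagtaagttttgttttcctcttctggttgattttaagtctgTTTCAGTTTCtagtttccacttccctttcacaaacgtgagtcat
Irf7: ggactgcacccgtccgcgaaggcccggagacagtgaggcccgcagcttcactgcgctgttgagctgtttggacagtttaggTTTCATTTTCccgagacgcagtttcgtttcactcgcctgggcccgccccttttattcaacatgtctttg
Searched on both strands of 300 bases around the start, the core was present in 3.77% of all 27457 promoters, in 15 of the 22 interferon response genes with a promoter in the table (68.2%) and in 5 of the 8 shared ones (62.5%). It was in 0 of the 32 cell cycle genes. The match is one of letters and says nothing of binding.

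**Figure D4:**
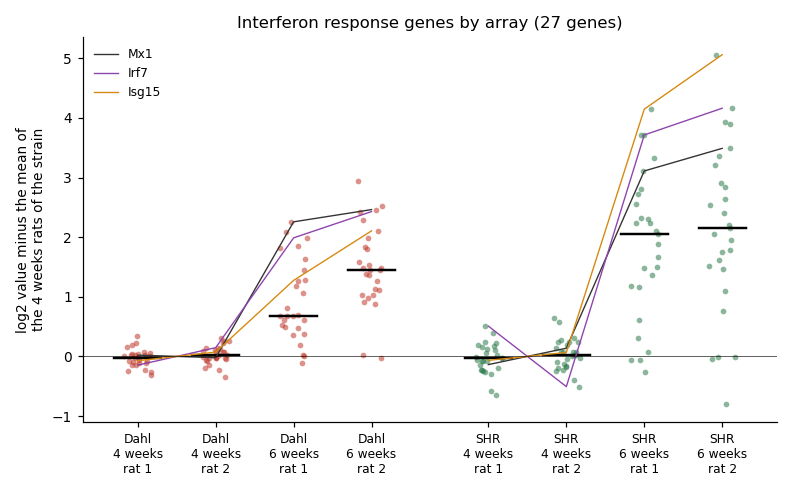
Interferon response genes (27) in all 8 arrays, each as its log2 value minus the mean of the 4 weeks rats of its strain. Points are genes, bars are medians and lines follow Mx1, Irf7 and Isg15; the medians lie at 0.68 and 1.46 in the Dahl 6 weeks rats and at 2.06 and 2.15 in the SHR 6 weeks rats.

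In SHR, 16 of the 27 rose by limma, against 2.35% of all genes, none fell, and the median was 2.09. No member had an interaction that passed at 0.05, while 13 had an unadjusted p under 0.05, as did 3404 of 31042 probe sets. A difference between the strains was thus not shown for any member, nor its absence. The median level of the list was 6.11 and 6.40 in the Dahl rats of 4 weeks against 3.97 and 4.18 in the SHR of 4 weeks. At 6 weeks it was 7.42 and 7.99 in Dahl rats and 6.29 and 6.84 in SHR. Without rat 1 of 6 weeks, 9 members passed in Dahl rats and the median was 1.46. Without rat 2 the median was 0.68 and none passed, and without any other array none passed.

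Genes of antigen presentation were also higher in most cases. Among 22 antigen-processing and histocompatibility genes (class I and II), 19 lay above both 4 weeks rats in both 6 weeks rats (16.2% of all genes did), with medians of 0.52 in rat 1 and 0.94 in rat 2. RT1-Db1, a class II beta chain, lay at 9.16 and 8.93 and then at 9.99 and 9.99. Cd74, the class II invariant chain, was at 11.22 and 11.02 and then at 11.64 and 11.70, and B2m, the light chain of class I, at 13.12 and 13.13 and then at 13.48 and 13.62. None of the 22 passed limma in Dahl rats. An unadjusted p under 0.05 with a higher level at 6 weeks was found for 13, against 886 of all 14217 genes. The rise of RT1-Db1 in SHR (2.53, limma adjusted p = 0.00300) was larger than the difference in Dahl rats, with an interaction of -1.59 (adjusted p = 0.0298). Tap1 and Tap2, which carry peptides to class I molecules, were 2-fold higher in rat 2 alone: Tap1 lay at 6.10 and 5.94 at 4 weeks, 6.42 in rat 1 and 7.74 in rat 2.

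Leukocyte markers moved with both groups. Of 23 measured, 12 were above both 4 weeks rats in both 6 weeks rats, against 16.2% of all genes, and 9 did not exceed 5 on any Dahl array. The median level of the list was 5.07 and 4.97 at 4 weeks and 5.64 and 5.79 at 6 weeks. Complement genes of macrophages were among them, with C1qa at 7.88 and 7.49 and then at 8.78 and 9.12, and C1qc at 6.84 and 6.59 and then at 7.80 and 8.24. Ptprc, which all leukocytes carry, lay at 6.33 and 6.62 and then at 6.99 and 7.45. Lymphocyte markers stayed at the floor of the arrays, such as Cd3d (2.24 to 2.25), Cd8a (2.51 to 2.55) and Ms4a1 (1.83 on all 4). Macrophage genes outside the list were higher in both rats too, such as Ctss (cathepsin S; 7.02 and 6.86, then 8.03 and 8.28), Cybb (the NADPH oxidase subunit of phagocytes) by 1.25 and 1.49, and Mpeg1 by 1.04 and 1.53. No leukocyte marker passed limma in Dahl rats, while 9 of the 23 rose in SHR, against 2.35% of all genes. The part of leukocytes in the interferon and antigen presentation differences was not tested.

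Immediate early genes were higher in most cases. Of 34 measured, 24 lay above both 4 weeks rats in both 6 weeks rats, against 16.2% of all genes, with medians of 0.46 in rat 1 and 0.72 in rat 2. Fos had the largest shared difference upward by the smaller of both deviations: it lay at 5.73 and 6.16 at 4 weeks and at 9.44 and 9.74 at 6 weeks, 11.3-fold and 13.9-fold above the 4 weeks mean. Its adjusted p was 0.142, and in SHR its levels were 3.13 and 3.98 and then 6.04 and 4.91. The second probe set of Fos, near the floor at a mean of 2.40 over all 8 arrays, differed by 0.02 in rat 1 and -0.02 in rat 2. Egr1, a zinc finger transcription factor, was at 8.72 and 9.36 and then at 10.84 and 11.02, Junb at 5.16 and 5.21 and then at 6.54 and 7.26, and Ccn1, a matricellular protein gene, at 8.53 and 8.93 and then at 10.42 and 10.51. All 4 were shared genes by the rule above.

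Jun was the member that passed: it lay at 9.56 and 9.65 at 4 weeks and at 10.24 and 10.22 at 6 weeks, and it rose by 0.63 (SE 0.04, limma adjusted p = 0.0396), that is 1.54-fold. In SHR Jun rose by 0.99 (adjusted p = 0.00309). Klf2, a transcription factor induced in endothelium by blood flow, was at 10.85 and 10.77 and then at 11.53 and 11.58 (adjusted p = 0.0506). Nr4a1, an orphan nuclear receptor gene, shows the limit of 2 rats, with 8.24 and 6.41 at 4 weeks and 9.0 and 8.86 at 6 weeks. The smallest adjusted p of all probe sets in Dahl rats, 0.00372, was that of a dim probe set of Nr4a3, which lay at 2.48 and 2.46 at 4 weeks, at 4.85 and 5.01 at 6 weeks and between 2.57 and 2.59 in all SHR. The brighter probe set of Nr4a3 did not follow, with 5.15 and 3.39 at 4 weeks and 4.66 and 5.35 at 6 weeks.

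Beyond these groups, a few single genes differed strongly in both 6 weeks rats. Dhrs7l1, a short-chain dehydrogenase gene, lay at 2.37 and 2.22 at 4 weeks and at 5.82 and 5.47 at 6 weeks. It rose by 3.35 (SE 0.16, limma adjusted p = 0.0318), and in SHR by 3.12 (adjusted p = 0.00667). Dpp6, known as a partner of potassium channels, measured 5.22 and 5.65 and then 8.10 and 8.45, with an adjusted p of 0.110. In SHR this probe set rose by 3.035 (limma adjusted p = 0.025). A dimmer probe set of Dpp6 rose in Dahl rats (2.02 and 2.08, then 3.80 and 4.14, adjusted p = 0.0396). That one lay between 2.05 and 2.06 on all SHR arrays. Scg2 (secretogranin II) lay at 5.95 and 6.53 and then at 8.30 and 8.46, and Ch25h (cholesterol 25-hydroxylase) at 5.60 and 6.41 and then at 7.85 and 7.92. In SHR Scg2 lay at 4.37 and 3.99 and then at 4.97 and 4.25, and Ch25h at 6.60 and 5.85 and then at 5.59 and 5.54. The interactions did not pass (adjusted p = 0.265 for Scg2 and 0.155 for Ch25h). Nqo1, at 4.56 and 4.70 and then at 5.52 and 5.52, rose by 0.89 (adjusted p = 0.0396), at a low signal.

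Of 18 clock genes measured, 3 were shared genes higher (Bhlhe41, Dbp and Tef), against 0.577% of all genes. Among those lower was 1 (Npas2), against 0.373% of all genes. In each of these genes the 4 weeks rats disagreed. Dbp, an output gene of the clock, lay at 7.64 in rat 1 and 10.32 in rat 2 at 4 weeks, and at 10.51 and 10.60 at 6 weeks. Bmal1, the core activator of the clock, was at 4.86 and 2.87 and then at 2.82 and 2.98, and Npas2, its alternative partner, at 6.54 and 3.86 and then at 3.80 and 3.65. In Dbp, Bmal1 and Npas2 rat 2 of 4 weeks was close to both 6 weeks rats and rat 1 of 4 weeks was not. Bhlhe41, a repressor of the clock, had 3.29 in rat 1 and 5.55 in rat 2 at 4 weeks, and 6.62 and 7.23 at 6 weeks. The time of day of tissue collection was not analysed here.

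The differences of rat 2 alone were mainly downward, with 512 genes lower and 104 higher. Of the 512 lower genes 67 were on any list, and 17 of these were proximal tubule markers. Of the 26 proximal tubule markers 17 were 2-fold lower in rat 2 alone, against 3.6% of all genes. Rat 2 lay below the 4 weeks mean in 25 of the 26, and rat 1 in 20. Anpep, a peptidase of the brush border, lay at 9.56 and 9.36 at 4 weeks, 9.05 in rat 1 and 7.67 in rat 2. Slc22a8, an anion transporter of the basolateral membrane, was at 11.16 and 11.07, then at 10.68 and 8.55, and Cubn (cubilin, a receptor for filtered proteins) at 10.41 and 10.41, then at 9.79 and 7.59. Lrp2 (megalin) differed less, with 12.34 and 12.38, then 12.26 and 11.70. None of the 26 passed limma, and the 2 with an unadjusted p under 0.05 were lower at 6 weeks, against 669 of all 14217 genes. Without rat 1 of 6 weeks, 14 passed as lower, with a median of -1.86, and without rat 2 none passed, with a median of -0.28.

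**Figure D5:**
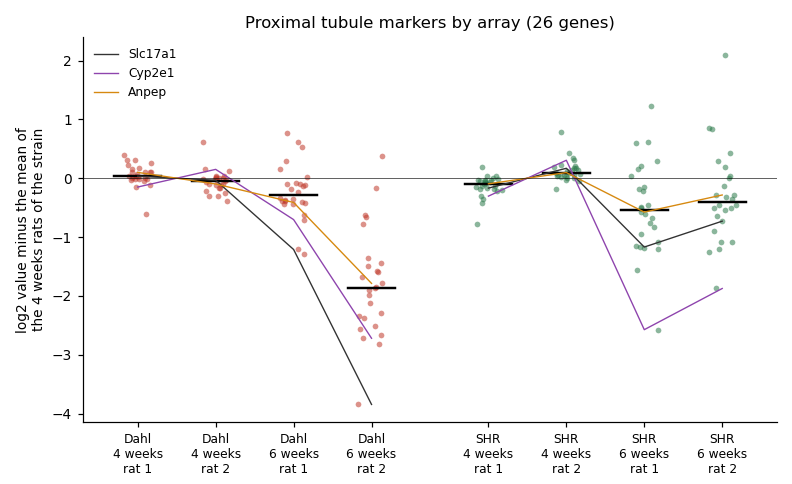
Proximal tubule markers (26) in all 8 arrays, each as its log2 value minus the mean of the 4 weeks rats of its strain. Points are genes, bars are medians and lines follow Slc17a1, Cyp2e1 and Anpep; the median lies at -0.28 in Dahl 6 weeks rat 1 and at -1.86 in rat 2, and at -0.54 and -0.41 in the SHR 6 weeks rats.

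Enzymes of metabolism were among the genes with the largest differences in rat 2 alone. Mtarc1, a molybdenum enzyme of mitochondria, lay at 7.48 and 7.19 at 4 weeks, 7.04 in rat 1 and 3.98 in rat 2. Ces1d, a carboxylesterase, was at 7.26 and 6.84, then at 6.87 and 3.76. Phgdh, the first enzyme of serine synthesis, was at 7.85 and 7.85, then at 7.64 and 4.93. In each of these rat 1 was within 0.5 of the 4 weeks mean. Ehhadh (peroxisomal fatty acid oxidation; 7.41 and 7.69, then 7.14 and 4.67), Acmsd (tryptophan breakdown; 7.19 and 7.14, then 6.77 and 4.51) and Adh1c (alcohol dehydrogenase; 10.66 and 10.59, then 10.27 and 7.96) had the same form. Solute carriers, the genes whose symbol starts with Slc, made up 49 of the 512 genes (9.57%) and 308 of all 14217 (2.17%). Markers of the loop of Henle and distal nephron were 2-fold lower in rat 2 alone in 8 of 23 cases, against 3.6% of all genes, with medians of 0.01 in rat 1 and -0.96 in rat 2. Genes of the mitochondrial respiratory chain lay below both 4 weeks rats in 32 of 36 cases, against 20.7% of all genes, with medians of -0.18 and -0.63.

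Some tubular genes met the rule for shared differences, but with very unequal sizes. Slc17a1, a phosphate transporter of the brush border, lay at 8.0 and 7.93 at 4 weeks, 6.75 in rat 1 and 4.12 in rat 2. Kl, the klotho gene, lay at 5.93 and 6.35 at 4 weeks, 5.06 in rat 1 and 3.79 in rat 2. In 10 of the 53 shared lower genes rat 2 exceeded rat 1 by more than 1, and none of these 10 was a cell cycle gene. The part of tubular RNA in the 53 was not tested.

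Upward, 104 of all 14217 genes (0.732%) were higher in rat 2 alone, of which 20 were on a list and 5 were interferon response genes. Of 7 erythroid genes 2 were among them, Hbb and Alas2, against 0.732% of all genes. The median of the erythroid list was -0.01 in rat 1 and -0.00 in rat 2, and Tfrc (transferrin receptor, 8.58 and 7.35, then 6.75 and 6.41) was 2-fold lower in both rats. No leukocyte marker was higher in rat 2 alone. Hba-a3, a globin alpha chain, lay at 4.55 and 4.88 at 4 weeks, 4.54 in rat 1 and 6.57 in rat 2, and Hbb (globin beta) at 9.60 and 10.20, then at 9.54 and 11.53. Alas2, the heme synthesis enzyme of red cell precursors, was at 2.44 and 2.52, then at 2.43 and 4.28. S100a9, a calcium-binding protein of neutrophils, was at 4.53 and 5.01, then at 4.47 and 6.55. Irf1, a transcription factor induced by interferon gamma, lay at 7.78 and 7.69, then at 7.62 and 9.27, and the GTPase gene Igtp at 7.70 and 7.94, then at 8.30 and 9.65. Rat 1 alone differed in few genes, among them Ccl2 (a chemokine for monocytes; 7.46 and 7.16, then 5.97 in rat 1 and 7.09 in rat 2) and Osgin1 (6.71 and 6.18, then 7.54 and 6.08).

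Cells of the glomerular tuft showed small differences. Of 17 endothelial markers, 14 were above both 4 weeks rats in both 6 weeks rats (16.2% of all genes), with medians of 0.27 in rat 1 and 0.61 in rat 2 and none past limma. Tek, the angiopoietin receptor, was at 10.42 and 10.57 and then at 11.25 and 11.47, and Ptprb, its phosphatase, at 10.44 and 10.78 and then at 11.16 and 11.72. In 1 gene only rat 1 deviated, Vwf (3.68 and 3.68, then 5.03 and 3.72). For podocytes, the medians were 0.00 and 0.31, and 7 of 20 markers were above both 4 weeks rats in both 6 weeks rats. Mesangial and smooth muscle markers had medians of -0.09 and -0.00, yet Des (desmin) was at 7.91 and 7.89 and then at 8.69 and 9.23. None of these cell type markers passed the test in Dahl rats.

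Genes of basement membrane and matrix lay below both 4 weeks rats in 17 of 36 cases, against 20.7% of all genes, with medians of -0.25 and -0.12. Col4a1, a chain of type IV collagen, was at 12.42 and 12.57 and then at 11.74 and 11.96, and Fbn1 (fibrillin) at 8.39 and 8.50 and then at 7.69 and 7.84. Neither passed (adjusted p = 0.202 for Col4a1 and 0.193 for Fbn1). Dnm1, Dnm2, Ctsl and Pdpn were among the genes picked by name, and Dnm1, Dnm2 and Ctsl had also been measured by quantitative PCR. Dnm1 (dynamin 1) lay at 7.40 and 7.14 and then at 7.39 and 7.29, its relative Dnm2 at 4.03 and 3.78 and then at 4.02 and 3.96, and Ctsl (cathepsin L) at 13.26 and 13.45 and then at 13.23 and 12.91. Their groups overlapped, except that both 6 weeks values of Ctsl were below the 4 weeks values. Dnm2 lay below 5 on every Dahl array. At so dim a signal its amount cannot be ranked against Dnm1, and a change with age may be missed. Pdpn (podoplanin), at 10.90 and 11.25 and then at 11.11 and 11.40, and the reference gene Hprt1, at 9.54 and 9.57 and then at 9.54 and 9.64, did not pass either.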

How the data were processed

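Glomerular RNA of 8 rats was hybridised to Affymetrix Rat Genome arrays. The authors normalised the arrays and deposited log2 intensities. RMA and GCRMA both appear in the submitters' processing notes, and it is unknown here which of them was used for these values. Of 31099 probe sets, 57 controls were left out. Of the 31042 tested, 20826 were annotated to 1 gene, 436 to several and 9780 to none listed. The brightest probe set stood for a gene. Limma 3.58.1 (R 4.3.3) was fitted over all 8 arrays with strain and age as groups, and p values were adjusted by Benjamini and Hochberg over all 31042 probe sets in each of 3 comparisons. Statistics were tested on simulated data. The rats are given as separate biological replicates, and the number of arrays limits the precision. A fixed rule picked, for each class, up to 12 genes (5 for rat 1 alone) with the largest difference. It also picked up to 4 genes of each of 34 lists with the smallest limma p. Both were taken from genes averaging at least 5 at 1 of the Dahl ages. The text names only part of these picks. A further 6 genes were picked by name: Dnm1, Dnm2, Ctsl, Nphs1, Pdpn and Hprt1. Of these, Dnm1, Dnm2, Ctsl and Hprt1 were also measured by quantitative PCR in the study. Other genes were named after their values were seen. Classes and lists were chosen with earlier results of these data known. Alternatives were other normalisations, models, thresholds, probe sets and the omission of each array.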

Additional observations from a re-analysis of the deposited data

Results flagged for a closer look

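The change with age differed between Dahl rats and SHR by limma's interaction for 161 probe sets. Among the genes named here it was more negative in Dahl rats for the cell division genes Ube2c (-3.91), Nusap1 (-3.91), Cdkn3 (-3.83), Knstrn (-3.75), Ccnb2 (-3.70), Bub1 (-3.68), Racgap1 (-3.61), Cdk1 (-3.59), Mki67 (-3.58), Ccna2 (-2.94), Mcm2 (-2.56), Esco2 (-2.45) and Pttg1 (-1.97), and for the nuclear lamina gene Lmnb1 (-2.91). It was also more negative for the matrix proteases Mmp9 (-2.82) and Mmp2 (-2.44), for Idi1 (-2.17) and Cyp51 (-1.87) of cholesterol synthesis, for RT1-Db1 (-1.59), for Myl9 (-1.58), a myosin light chain, for Ppfibp2 (-0.40) and for Fastkd5 (-0.39).

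The interaction was more positive in Dahl rats for the sulfotransferase gene Sult1a1 (5.05), the lipase gene Pnpla2 (2.49), the receptor gene Igf1r (1.26) and Pfkp (1.12), a phosphofructokinase. The dim probe sets called in Dahl rats were more positive too, with 2.45 for Nr4a3, 1.92 for Dpp6, 0.69 for Vcan and 0.52 for Cacna2d1. The brighter probe set of Dpp6 did not follow, with an interaction of -0.196 (limma adjusted p = 0.988). In Sult1a1 the difference lay in SHR, with 11.61 and 11.84 at 4 weeks and 7.11 and 7.53 at 6 weeks, whereas Dahl rats were at 7.46 and 7.90 and then at 8.13 and 8.53. Pnpla2 likewise lay at 10.48 and 10.57 and then at 8.10 and 8.16 in SHR, and at 8.34 and 8.21 and then at 8.32 and 8.43 in Dahl rats.

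The medians of 8 lists lay below the 4 weeks mean in both Dahl 6 weeks rats and above it in both SHR of 6 weeks. The median difference between the strains was -1.90 for cell cycle genes, -0.50 for heat shock and endoplasmic reticulum stress genes, -0.42 for basement membrane and matrix genes and -0.41 for cholesterol synthesis. It was -0.25 for matrix proteases, -0.21 for parietal epithelium, -0.20 for dynamin, endocytosis and cathepsin genes and -0.056 for mesangium and smooth muscle. In these last 4 lists the medians of the Dahl rats lay within 0.1 of 0, and for the dynamin list the median change over both Dahl rats was 0.02. These differences were not tested as lists.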

How the results depend on the processing

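The limma counts for Dahl rats were small and moved with most settings. All 25 probe sets kept their direction in each alternative that tested all probe sets. In many of these the direction could not turn, because the estimated change in Dahl rats stays the same. That holds for array weights, the intensity trend, the replicate block, the Dahl arrays alone and the omission of an SHR array. Against 16 higher and 9 lower, array weights gave 4 and 2, the Dahl arrays alone 0 and 0, probe sets brighter than the median 28 and 19, and an adjusted p of 0.1 gave 46 and 30. The methods' t-test gave 634 and 740, and 0 and 0 after Benjamini-Hochberg. An intensity trend gave 14 lower. Leaving out 1 array gave 0 to 540 higher and 0 to 503 lower, with the highest counts without rat 1 of Dahl 6 weeks and 0 without any SHR array. The 161 probe sets of the interaction became 434 at an adjusted p of 0.1 and 7 to 540 with 1 array left out, with 7 without rat 1 of SHR 6 weeks.

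The main model did not pair the samples by replicate number. Deviations of same-numbered rats correlated at -0.23 to 0.24, with the highest value between Dahl rats of 4 and 6 weeks. Whether the numbers pair the samples was not tested. With the replicate number as a block, 2 probe sets passed as higher and 1 as lower in Dahl rats, and 31 in the interaction. Of the 39 cell cycle genes the block left 1 lower in Dahl rats, 10 higher in SHR and 4 in the interaction, and array weights left 0, 20 and 14.

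A threshold of 1.5-fold gave 417 shared probe sets higher and 273 lower, and for rat 2 alone 1244 and 1403. With 1 probe set per gene, 82 were shared higher and 104 higher in rat 2 alone, and among probe sets brighter than the median rat 2 alone had 129 higher. With 1 of the 4 weeks arrays left out, 128 to 177 were shared higher, 99 to 112 shared lower, and 196 to 228 higher and 600 to 731 lower in rat 2 alone. The direction of 29 values of single genes turned. Other probe sets of the same gene gave -0.00084 for Fos, -0.0053 for Tap1, -0.0068 for Aif1, 0.057 for Dpep1, -0.19 and -0.0044 for Pard3, -0.0051 and -0.0043 for Bmp6, -0.085 for Ptgs1, -0.0020 for Klf2, -0.017 for Cry2, -0.17 for Per2 and -0.33 for Nr1d2. Those of Fos, Tap1, Aif1, Bmp6, Klf2 and Cry2 were near the floor, with means of 1.53 to 2.40 over all 8 arrays. With 1 array left out, the values ran from -0.17 to 1.85 for Hba-a3, -0.30 to 1.78 for S100a9, -0.36 to 1.63 for Hbb, -0.12 to 1.54 for Irf1, -0.040 to 1.48 for Bcl2a1, -2.81 to 0.16 for Paqr9, -0.39 to 1.97 for Ugt2b35, -0.37 to 1.09 for Osgin1, -0.29 to 0.52 for Myh1, -0.33 to 0.31 for Lpl, -0.063 to 0.20 for Dnm1, -0.032 to 0.21 for Dnm2 and -0.0092 to 0.083 for Hprt1. Quantile normalization gave 0.0059 for Lpl. The cause was not tested. Of the other values of single genes, 2536 kept their direction and side of the threshold, 57 passed only in the alternative and 80 no longer passed. Settings for single genes other than those for the counts were chosen after seeing the data. Dim signal limits the small differences of genes near the floor of the arrays, and with 2 rats a group a single animal can set a value, as in the clock genes.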

Other observations

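Of 19 glucocorticoid-responsive genes, rat 1 lay above the 4 weeks mean in 12 and rat 2 in 7, with medians of 0.22 and -0.06. Of 29 peroxisomal and fatty acid oxidation genes 13 lay below both 4 weeks rats in both 6 weeks rats, against 20.7% of all genes. Rat 1 lay below the 4 weeks mean in 18 and rat 2 in 28, against 7763 and 7835 of all 14217 genes. In rat 2 alone 7 were 2-fold lower, against 3.6% of all genes. The medians were -0.04 in rat 1 and -0.61 in rat 2. Cyp4a1, a fatty acid hydroxylase, lay at 9.68 and 9.87 at 4 weeks, 9.29 in rat 1 and 7.16 in rat 2. Cd36, a fatty acid receptor that endothelium and macrophages also carry, was instead higher in both rats, at 6.96 and 7.69 and then at 8.42 and 8.74 (limma adjusted p = 0.370). Of 32 antioxidant and conjugating enzymes 6 were 2-fold lower in rat 2 alone, again against 3.6% of all genes.

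Among matrix proteases Mmp12, the elastase of macrophages, was higher in both rats, with 4.35 and 4.25 at 4 weeks and 5.88 and 6.46 at 6 weeks (limma adjusted p = 0.0990). In SHR it lay between 4.23 and 4.49. Il18, a cytokine of the interleukin 1 family, was at 7.84 and 8.85 and then at 9.45 and 10.02 (adjusted p = 0.407). Ptgs2, the inducible cyclooxygenase, was lower in both rats, at 8.18 and 8.23 and then at 7.16 and 7.28 (adjusted p = 0.383). Of 28 heat shock and endoplasmic reticulum stress genes 15 lay below both 4 weeks rats in both 6 weeks rats, against 20.7% of all genes, with medians of -0.25 and -0.11. The mitochondrial chaperonin genes Hspd1 (11.78 and 11.53, then 11.33 and 10.62) and Hspe1 (12.24 and 12.09, then 11.78 and 11.11) were 2-fold lower in rat 2 alone.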
